A study of Mus musculus with 9 samples.

Results

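The genes described here encode enzymes that release superoxide, hydrogen peroxide or nitric oxide, together with their partner proteins: Nox1, Noxo1, Noxa1, Cyba, Nox4, Duox2, Duoxa2, Nos2 and Xdh. They were chosen by symbol, and all 9 were found among the 23955 rows of the count table. RNA-seq was performed on mouse gut epithelial organoids, a type of culture that the study describes as purely epithelial. They were grown in a medium with Noggin, EGF, bFGF and R-spondin1. The samples form 3 groups of 3 biological replicates. MIN organoids came from the normal tissue next to the tumors of APCmin/+ mice, adenoma organoids came from the adenomatous polyps of such mice, and sulindac organoids were adenoma organoids treated with sulindac, an NSAID that inhibits cyclooxygenases. Every group therefore carries the APCmin mutation, and neither a wild-type sample nor sulindac-treated MIN organoids entered the analysis. The age of the mice, and the dose and duration of sulindac in organoids, are not given in the sources used here. Expression is given as CPM, which brings the counts of all libraries to a common total after TMM scaling. The libraries held 30881206 to 48412477 counts, so that 3 counts, taken as the floor of detection, corresponded to 0.0641 to 0.10 CPM. This floor covers counting error only.

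NADPH oxidases move electrons from NADPH across a membrane to oxygen. NOX1, known from the epithelium of the gut, sits in the membrane with p22phox, encoded by Cyba, and releases superoxide when the organizer NOXO1, the activator NOXA1 and the GTPase RAC1 join it. NOX4 needs p22phox but neither NOXO1 nor NOXA1. DUOX2 releases hydrogen peroxide at the epithelial surface, where it takes part in defense against microbes, and it leaves the endoplasmic reticulum only with its maturation factor DUOXA2. NOS2, the inducible nitric oxide synthase, makes nitric oxide from arginine, and XDH, xanthine dehydrogenase, makes uric acid in purine breakdown and can pass electrons to oxygen.

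The promoter bases before the RefSeq start were available for 7 of the 9 genes (GRCm38.p6). They are shown for 2 genes that were nearly silent in adenoma, Nox1 and Duoxa2, and for Cyba, the member that was higher there. Each sequence runs 5′ to 3′ on the strand of the gene and ends at the last base before the start. Capitals mark matches, on either strand, to motif letters of factors that act on intestinal genes. For the GATA factors the letters were NGATAA with A or T as the first base. For the CDX factors, which include the intestinal factor encoded by Cdx2, they were TTTATNG. For the TATA box, the core element of many promoters, they were TATAAA.
Nox1, chrX:134111855-134112104, minus strand: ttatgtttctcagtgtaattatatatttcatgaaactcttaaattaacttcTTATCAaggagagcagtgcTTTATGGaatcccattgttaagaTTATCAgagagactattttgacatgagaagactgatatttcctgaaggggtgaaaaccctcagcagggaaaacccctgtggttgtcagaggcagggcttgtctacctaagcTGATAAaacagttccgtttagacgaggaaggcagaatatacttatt
Duoxa2, chr2:122298650-122298899, plus strand: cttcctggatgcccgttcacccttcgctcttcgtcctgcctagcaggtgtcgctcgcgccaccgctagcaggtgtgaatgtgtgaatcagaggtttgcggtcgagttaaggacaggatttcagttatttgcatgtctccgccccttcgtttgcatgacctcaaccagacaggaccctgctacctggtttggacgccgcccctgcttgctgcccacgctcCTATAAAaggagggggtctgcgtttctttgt
Cyba, chr8:122432941-122433190, minus strand: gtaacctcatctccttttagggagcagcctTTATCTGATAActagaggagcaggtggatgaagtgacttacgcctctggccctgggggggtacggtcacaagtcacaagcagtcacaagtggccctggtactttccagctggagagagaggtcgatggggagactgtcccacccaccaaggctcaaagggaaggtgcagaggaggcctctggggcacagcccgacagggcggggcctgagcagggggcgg
The Nox1 sequence held 3 GATA matches and 1 CDX match. In Duoxa2 a CDX match overlapped the TATA box, which began 30 bases before the start, and in Cyba 2 GATA matches overlapped by a base. Of 32851 promoter sequences of 250 bases, 16.6% held a GATA match, 9.81% a CDX match and 12.4% a TATA box. The letters CAAAGTCCA (HNF4) and TTCNNNGAA (STAT factors) and the IRF element of paired GAAA cores were searched as well and are present in 0.384%, 7.02% and 2.98% of these sequences, but not in those of Nox1, Duoxa2 and Cyba. The promoters of Duox2, also nearly silent in adenoma, and of Noxo1 held 0 matches to any of the 6 motifs, and the letters were chosen after the expression values were seen. A match describes letters and not a binding site. Duox2 and Duoxa2 lie head to head on chromosome 2, with RefSeq starts 673 bases apart.

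The level of each gene in MIN gives the base for the comparisons. Nox1 had 198, 680 and 228 counts in MIN replicates 1 to 3, or 4.82, 14.5 and 6.21 CPM. Of its partners, the same samples had 45.9, 44.5 and 33.6 CPM of Noxo1, 32.0, 28.2 and 25.6 CPM of Noxa1, and 42.5, 45.6 and 51.7 CPM of Cyba. Nox1 thus stood out in MIN replicate 2, in which none of its partners did. For the DUOX2 enzyme and its maturation factor, MIN replicates 1 to 3 had 21.8, 17.2 and 37.1 CPM of Duox2 and 5.47, 4.79 and 10.5 CPM of Duoxa2. The corresponding values of Nos2 were 7.95, 6.73 and 16.9 CPM. These genes shared the high value in MIN replicate 3, and the count of Duoxa2 over that of Duox2 stayed between 0.251 and 0.283 in the MIN samples, while that of Nos2 over Duox2 lay between 0.365 and 0.455. Xdh showed the opposite order, with 59.4, 49.0 and 24.5 CPM, lowest in MIN replicate 3. Nox4 was at the floor everywhere, with 1 count in MIN replicate 1 and 0 in the other 8 samples.

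To put the genes in order, levels were expressed per length, as CPM per kilobase of the longest GENCODE M21 transcript. In MIN, Cyba led with 62.6 ± 6.24 CPM per kb (SD, n = 3), followed by Noxo1 (18.5 ± 3.00) and Noxa1 (17.7 ± 1.99), which did not differ beyond their spread. Xdh (5.70 ± 2.30), Duoxa2 (4.35 ± 1.96), Duox2 (4.15 ± 1.70), Nox1 (3.32 ± 2.05) and Nos2 (2.51 ± 1.32) came next, on the same scale, and each of these neighbors lay within the spread of the other. In adenoma the order was Cyba (135.9 ± 29.5 CPM per kb), Noxa1 (15.3 ± 1.43), Noxo1 (6.27 ± 1.99) and Xdh (0.539 ± 0.189), and the other members were below 0.07 CPM per kb. After sulindac it was Cyba (86.4 ± 12.1), Noxa1 (6.71 ± 0.359), Noxo1 (5.24 ± 1.59) and Xdh (0.969 ± 0.230), where Noxa1 and Noxo1 lay within the spread. The length used matters for this order. With the mean length of all transcripts of a gene, Noxo1 rose to 42.1 and Xdh to 25.9 CPM per kb in MIN, and Cyba still led with 67.7. By that length Noxo1 and Noxa1 were at 14.3 and 15.5 CPM per kb in adenoma. After sulindac they were at 11.9 and 6.80, so that their order turned.

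**Figure D1:**
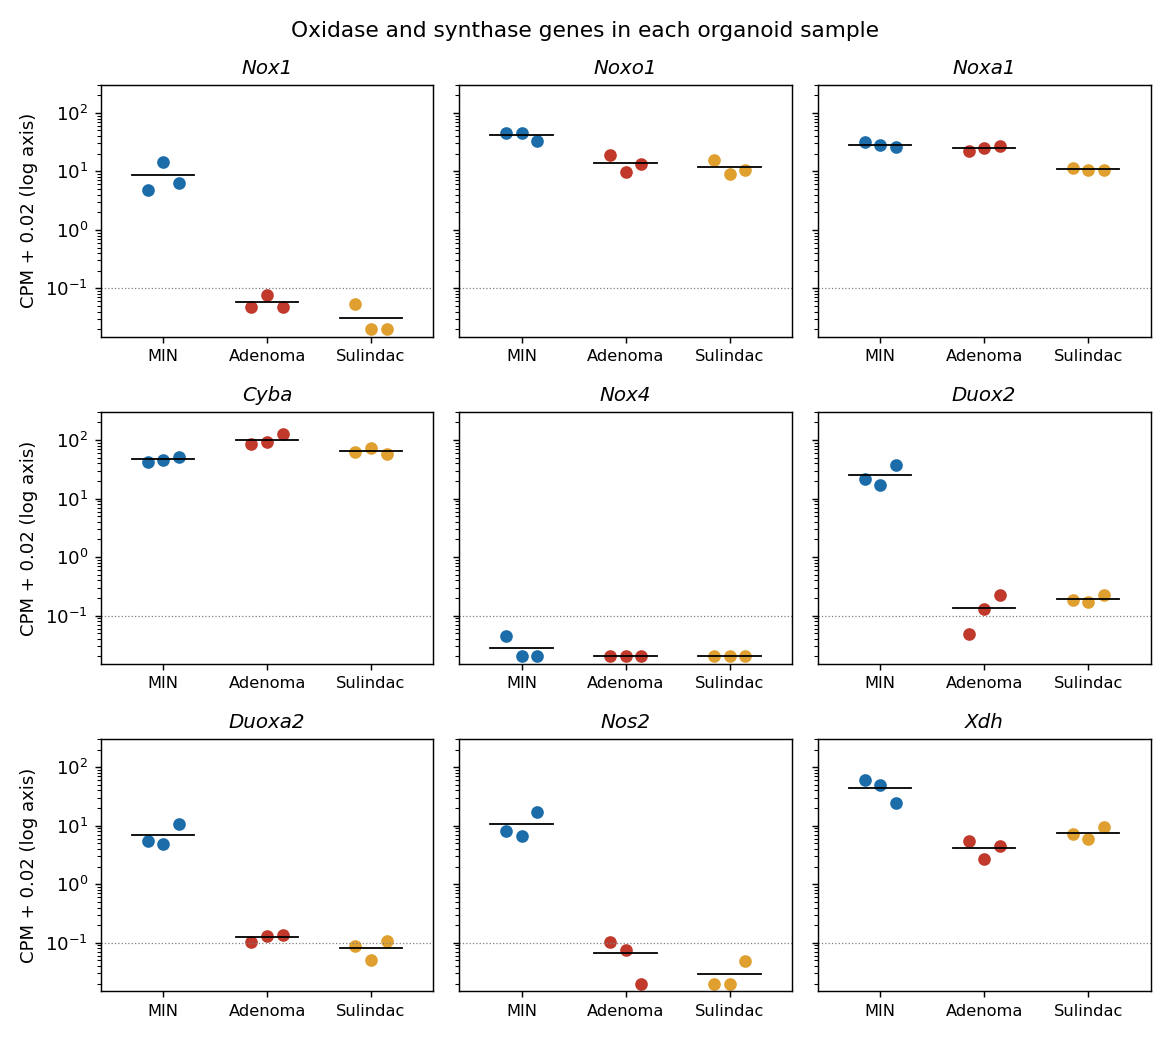
Level of each gene in each sample, as CPM + 0.02 on a log axis, by group; points are the 3 replicates from 1 (left) to 3 (right), the black line is their mean and the dotted line marks 0.1 CPM. Nox1, Duox2, Duoxa2 and Nos2 lie between 4.79 and 37.1 CPM in MIN and at or below 0.204 CPM in all adenoma and sulindac samples, while Nox4 stays at the floor.

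Adenoma organoids nearly lacked the transcripts of Nox1, Duox2, Duoxa2 and Nos2, had less Noxo1 and Xdh than MIN organoids, and had more Cyba. Of the 8 members tested, 6 were lower in adenoma, 1 was higher and Noxa1 was not called, using the quasi-likelihood test of edgeR and a false discovery rate (FDR) of 1%, with p-values adjusted after Benjamini and Hochberg over 13744 genes. Among all genes tested, 38.7% were called at the same threshold, 20.1% as lower and 18.5% as higher, and the groups did not overlap for 32.2% with lower and 30.7% with higher values in adenoma. The median log2 fold change was -4.71 for these members and -0.01 for all genes tested. Nox1, Duox2, Duoxa2 and Nos2 passed the filter on low counts only through MIN, so they had to differ, and the count and median describe the genes without adding support. Nox4 did not pass the filter.

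The catalytic subunit Nox1 had 1, 2 and 1 counts in adenoma replicates 1 to 3, against 198 to 680 in MIN. The pooled level was 235.2-fold higher in MIN, with a 95% interval from counting alone of 91.6 to 864.7. The fitted log2 fold change was -7.70 (standard error, SE, 0.66, adjusted p = 2.15e-05, edgeR), and without MIN replicate 2 it was -7.07. Nox1 shares 10.4% of its 50-base stretches with Cstf2 (GENCODE M21), a gene on the opposite strand with 66.3 CPM in adenoma.

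Noxo1, the organizer, had 18.7, 9.83 and 13.6 CPM in adenoma replicates 1 to 3, below every MIN sample. The log2 fold change came to -1.56 (SE 0.23, adjusted p = 0.000552, edgeR). Its exons overlap those of Tbl3 on the opposite strand, and 58.5% of its 50-base stretches also lie in transcripts of Tbl3. How strand was handled is not given in the sources used here, and without strand the reads of both genes cannot be told apart, which leaves the counts of Noxo1 uncertain. Tbl3 fell less, from 80.1 ± 3.83 to 59.7 ± 5.61 CPM (SD, n = 3 each), and did not pass the threshold (log2 fold change -0.42, adjusted p = 0.0102, edgeR). The activator Noxa1 had 22.3, 25.1 and 26.8 CPM in adenoma, overlapping with MIN (log2 fold change -0.21, SE 0.13, adjusted p = 0.214, edgeR). Cyba, which encodes the membrane partner p22phox, rose to 84.1, 93.3 and 125.9 CPM in adenoma, above every MIN sample. In log2 this was a fold change of 1.12 (SE 0.16, adjusted p = 0.000484, edgeR).

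Duox2 had 1, 4 and 7 counts in adenoma replicates 1 to 3, against 807 to 1363 in MIN. Its pooled level was 217.4-fold higher in MIN (95% counting interval 124.3 to 421.2). The fitted log2 fold change was -7.76 (SE 0.50, adjusted p = 3.94e-06, edgeR) and became -8.43 without adenoma replicate 3. Duoxa2 had 3, 4 and 4 counts in the adenoma samples, where MIN had 224 to 386, a pooled ratio of 64.6 (95% counting interval 35.9 to 129.8). The fit gave a log2 fold change of -6.01 (SE 0.46, adjusted p = 1.05e-05, edgeR). Both genes of the head-to-head pair were therefore far below MIN in every adenoma sample. Of the 50-base stretches of Duoxa2, 41.1% also lie in Duoxa1 on the opposite strand, which itself had 0 to 4 counts in any sample.

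Nos2 had 3, 2 and 0 counts in adenoma replicates 1 to 3, at or under the floor, against 315 to 620 in MIN. The pooled level was 214.7-fold higher in MIN (95% counting interval 91.8 to 662.3). Its fitted log2 fold change was -7.70 (SE 0.65, adjusted p = 1.85e-05, edgeR), or -8.37 without adenoma replicate 1. None of its 50-base stretches lies in another gene. Xdh fell to 5.53, 2.63 and 4.42 CPM in adenoma, a smaller change that left the gene well above the floor. For Xdh the log2 fold change was -3.40 (SE 0.38, adjusted p = 9.66e-05, edgeR).

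**Figure D2:**
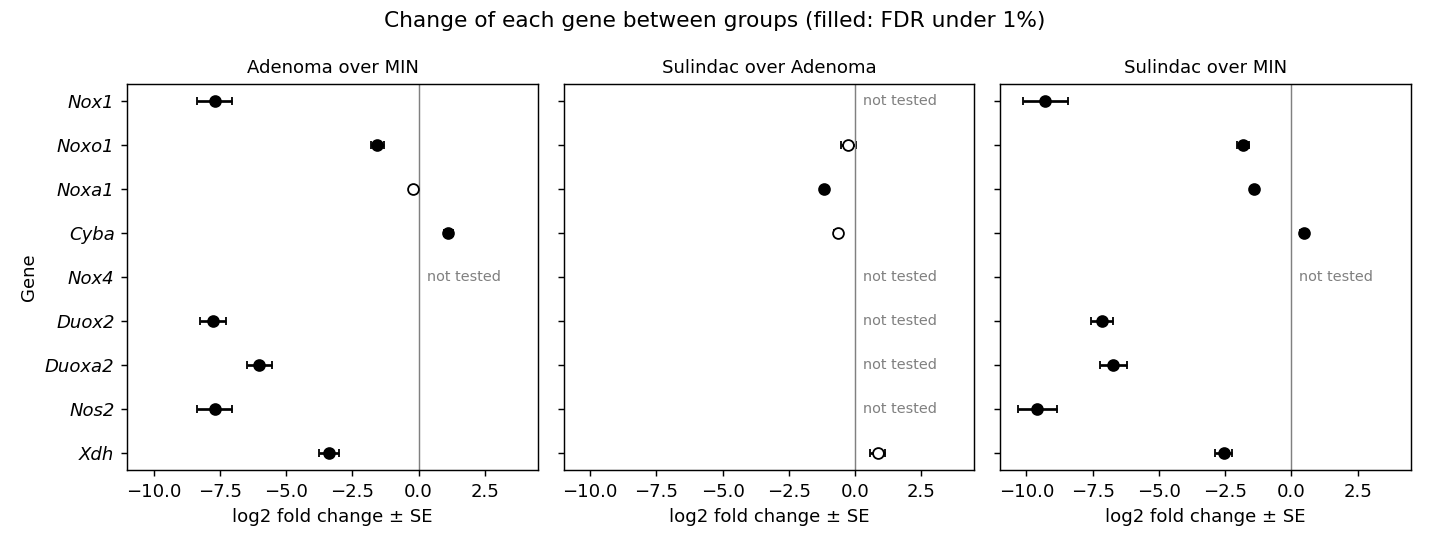
Log2 fold change of each gene in the 3 comparisons, with bars of 1 standard error; filled points passed the FDR of 1% (edgeR), open points did not, and genes removed by the low-count filter are named as not tested. Between adenoma and MIN, Nox1, Duox2, Duoxa2 and Nos2 lie between -7.76 and -6.01 while Cyba lies at 1.12, and after sulindac only Noxa1 has a filled point in the comparison with adenoma.

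Sulindac treatment of adenoma organoids was followed by less Noxa1, and the genes that were nearly silent in adenoma stayed at 0 to 7 counts per sample. Of the 9 members, 4 could be tested between sulindac-treated and untreated adenoma, of which 1 was lower, 0 were higher and 3 were not called. Among all 12962 genes tested, 9.1% were lower and 8.32% higher, 17.4% in all. Scaled by library size alone, the split over all genes moved from 1179 lower and 1078 higher to 1983 lower and 603 higher, with a median log2 fold change of -0.18 instead of -0.01. The median of the 4 members was -0.45.

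Noxa1 had 11.5, 10.7 and 10.4 CPM in sulindac replicates 1 to 3, below each of the untreated adenoma samples, which had 22.3 to 26.8 CPM. Between the groups its log2 level differed by -1.18 (SE 0.12, adjusted p = 0.000364, edgeR). Noxo1 had 15.7, 8.87 and 10.6 CPM after sulindac and overlapped with untreated adenoma (log2 fold change -0.25, SE 0.28, adjusted p = 0.521, edgeR), and without adenoma replicate 1 the value was 0.020. Cyba had 61.5, 74.4 and 57.0 CPM after sulindac, each lower than in any untreated adenoma sample. Its log2 fold change was -0.64 (SE 0.16) and its adjusted p of 0.0145 in edgeR missed the threshold. The threshold was passed without adenoma replicate 1 (adjusted p = 0.00952, edgeR), with library size alone (0.00419), in a single fit of all 9 samples (0.0094) and by the Wald test of DESeq2 (0.00175). Xdh had 7.17, 5.96 and 9.48 CPM after sulindac, above all untreated adenoma samples, with a log2 fold change of 0.86 (SE 0.29, adjusted p = 0.0503, edgeR) that did not pass. Groups that did not overlap were common, at 26% of all genes tested for lower and 22.9% for higher values after sulindac.

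The remaining members were too low to test in this comparison. Nox1 had 1, 0 and 0 counts and Nos2 had 0, 0 and 1 count in sulindac replicates 1 to 3. Duoxa2 had 2, 1 and 3 counts, and 11 counts in all untreated against 6 in all treated samples gave a ratio of 1.68 (95% counting interval 0.569 to 5.53). Duox2 had 5, 5 and 7 counts after sulindac, with an untreated over treated ratio of 0.647 (95% counting interval 0.282 to 1.44). At this depth no difference between treated and untreated adenoma was detectable for either gene.

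Sulindac-treated adenoma organoids remained far from MIN organoids in these genes. Of the 8 members tested between them, 7 were lower in sulindac than in MIN and 1, Cyba, was higher, where 49.7% of all 13551 genes tested were called, 26.8% as lower and 23% as higher, and groups did not overlap for 36% with lower and 33.6% with higher values. This comparison shares its samples with both others, and Nox1, Duox2, Duoxa2 and Nos2 again passed the filter through MIN alone. The pooled level in MIN over sulindac was 140.6-fold for Duox2 (95% counting interval 87.6 to 241.6) and 108.4-fold for Duoxa2 (49.6 to 296.3). For Nox1 and Nos2, with 1 count each in all sulindac samples, the ratios were 861.6 (154.3 to 34063) and 983.2 (176.1 to 38863). Their fitted log2 fold changes were -9.29 and -9.59 (adjusted p = 3.52e-05 and 1.13e-05, edgeR), which became -11.36 and -11.62 without the library that held the single count, sulindac replicate 1 for Nox1 and replicate 3 for Nos2. Without MIN replicate 2 that of Nox1 was -8.63. Noxa1, which was not called between adenoma and MIN, was lower in sulindac than in MIN (log2 fold change -1.40, SE 0.12, adjusted p = 1.61e-05, edgeR), as were Noxo1 (-1.82) and Xdh (-2.56). Tbl3, which overlaps Noxo1, was lower too (log2 fold change -0.45, adjusted p = 0.00188, edgeR). Cyba was at 64.3 ± 9.0 CPM after sulindac against 46.6 ± 4.64 CPM in MIN (SD, n = 3 each), higher by 0.46 in log2 (adjusted p = 0.00773, edgeR). That call was lost in a single fit of all 9 samples (adjusted p = 0.0249, edgeR), and without MIN replicate 1 (0.0298), MIN replicate 2 (0.0266), sulindac replicate 1 (0.0184) or sulindac replicate 2 (0.0228).

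Many other subunits and relatives of these oxidases were at or near the floor. Of a list of 15 such genes, 14 had a row and 9 were tested between adenoma and MIN, where 2 were higher, 1 was lower and 6 were not called, beside 18.5% higher and 20.1% lower among all genes. Cybb, which encodes the catalytic subunit NOX2 of phagocytes, had at most 1 count in any sample, Nox3 had 0 counts in all 9, and Duox1 had 0 to 3. Ncf4, a phagocyte oxidase subunit, had 0 to 4 counts. Ncf1, the phagocyte counterpart of Noxo1, ranged over 17 to 34 counts in the MIN samples and 26 to 30 in those of adenoma (adjusted p = 0.398, edgeR). Rac1, the GTPase of the complex, was at 350.4 ± 16.0 CPM in MIN, 329.1 ± 21.8 in adenoma and 327.5 ± 27.6 after sulindac (SD, n = 3 each) and was not called in any comparison, and it shares 50.3% of its 50-base stretches with Daglb. Hvcn1, the voltage-gated proton channel that balances the charge moved by oxidases, rose from 9 to 15 counts per sample in MIN to 268 to 485 per adenoma sample (5.20 in log2, adjusted p = 5.84e-06, edgeR). In this comparison Hvcn1 passed the filter on low counts only through adenoma, so its call adds no support. After sulindac Hvcn1 fell to 35 to 49 counts (log2 fold change -2.97, adjusted p = 0.000348, edgeR). It was the 1 gene called of the 8 tested from this list, beside 9.1% lower and 8.32% higher among all genes. Sh3pxd2a, which encodes the scaffold TKS5, was higher in adenoma than in MIN, by 1.67 in log2 (adjusted p = 8.15e-05, edgeR). Between sulindac and MIN, 3 of 9 were higher (Hvcn1, Sh3pxd2a and BC017643) and 2 were lower, with Poldip2 among them, beside 23% and 26.8% of all genes. The calls of BC017643 and Poldip2 were lost without some single libraries, MIN replicate 2 and sulindac replicates 1 and 3 for both and sulindac replicate 2 for BC017643 (adjusted p = 0.0123 to 0.0163, edgeR).

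**Figure D3:**
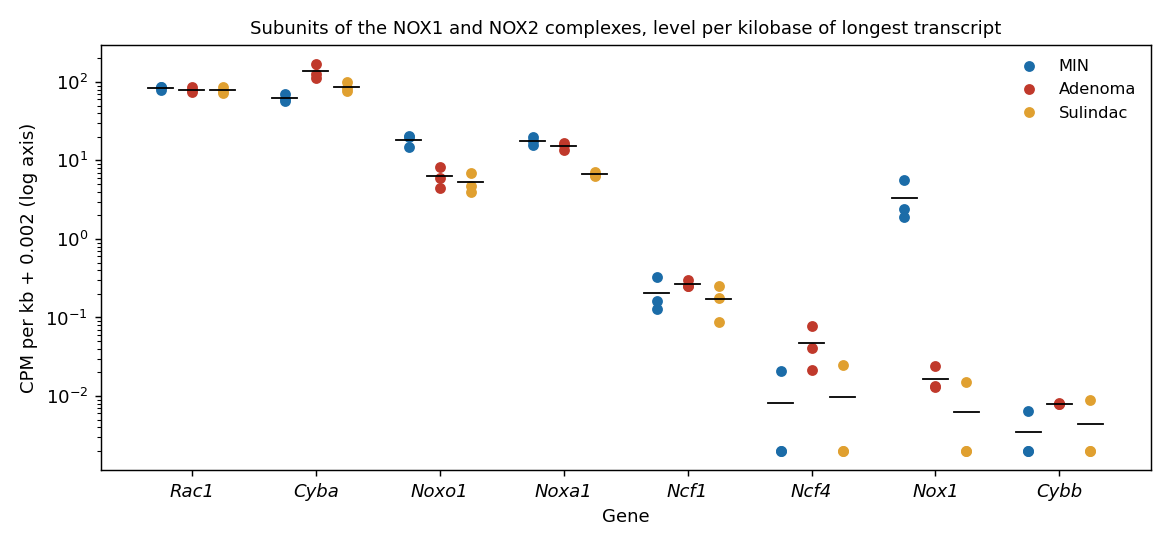
Level of subunits of the NOX1 and NOX2 complexes per kilobase of the longest transcript, as CPM per kb + 0.002 on a log axis; points are the 3 samples of each group and black lines their means. Rac1 and Cyba lie above all others in every group, Nox1 is high in MIN alone, and Cybb is near 0 throughout.

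Around Nos2, the genes of arginine supply moved in both directions. Of 18 genes for the other nitric oxide synthases, their cofactor and arginine, 17 were tested between adenoma and MIN, where 5 were lower, 2 higher and 10 not called, beside 20.1% lower and 18.5% higher among all genes, with a median log2 fold change of -0.28. Arg2, the mitochondrial arginase that competes with NOS2 for arginine, fell from 31.9, 29.4 and 20.4 CPM in MIN to 0.702, 0.335 and 0.347 CPM in adenoma (log2 fold change -5.87, adjusted p = 1.53e-06, edgeR). Slc7a2, an importer of arginine, went the same way, at -5.41 in log2 (adjusted p = 6.47e-07, edgeR). Arg1, the cytosolic arginase, fell from 12 to 31 counts per MIN sample to at most 1 per adenoma sample, with a fitted log2 fold change of -5.40 (adjusted p = 0.000547, edgeR) that became -7.38 without adenoma replicate 2. Arg1 passed the filter on low counts only through MIN, so it had to differ. Slc7a2, with 9 to 16 counts per adenoma sample, also needed MIN samples to pass, so its call adds no support. In contrast, Ass1, which encodes the enzyme that recycles citrulline toward arginine, rose from 37.4, 37.7 and 30.3 CPM to 272.3, 268.1 and 284.5 CPM (log2 fold change 2.97, adjusted p = 3.34e-07, edgeR). Nos3, the endothelial synthase, rose from 0.705, 0.726 and 0.681 CPM in MIN to 2.92, 2.63 and 5.29 CPM in adenoma (log2 fold change 2.35, adjusted p = 0.000419, edgeR), and 20.0% of its 50-base stretches lie in other genes. Nos1, the neuronal synthase, had at most 2 counts in any sample. After sulindac, 3 of 16 genes tested were lower, beside 9.1% of all genes, and 0 were higher: Gchfr, which encodes the feedback regulator of the first enzyme of cofactor synthesis (log2 fold change -1.24, adjusted p = 0.00465, edgeR), Nostrin (-1.04, 0.00242) and Pts, an enzyme of cofactor synthesis (-0.70, 0.00182). All 3 calls were lost without sulindac replicate 3, and those of Gchfr and Pts also without replicate 1 and those of Gchfr and Nostrin without replicate 2 (adjusted p = 0.012 to 0.026, edgeR). Nos3 stayed at 3.50, 4.71 and 4.25 CPM (adjusted p = 0.595, edgeR). Compared with MIN, 9 of 17 were lower after sulindac, beside 26.8% of all genes, among them Arg2, Slc7a2 and Arg1 (log2 fold changes -4.74, -5.45 and -4.49), and 3 were higher, among them Nos3 (2.55) and Ass1 (2.80).

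Around Xdh, 7 of 12 genes tested for purine breakdown, molybdenum enzymes and their cofactor were lower in adenoma than in MIN and 1 was higher, beside 20.1% and 18.5% of all genes, with a median log2 fold change of -0.61. Gda, the guanine deaminase that makes xanthine, the substrate of XDH, dropped from 1779 to 3113 counts per MIN sample to 8 to 29 per adenoma sample (log2 fold change -7.11, adjusted p = 1.62e-06, edgeR), or -7.94 without adenoma replicate 2. Ada, the adenosine deaminase, fell as well (log2 fold change -1.81, adjusted p = 5.52e-05, edgeR). Nt5e, which encodes CD73, varied from 45 to 480 counts within MIN and had 2 to 5 in adenoma. Its log2 fold change of -5.85 (adjusted p = 0.00448, edgeR) became -3.67 without MIN replicate 3, and the call was lost without any 1 of the adenoma samples (adjusted p = 0.0154 to 0.0362, edgeR). Aox1, an aldehyde oxidase of the same enzyme family as XDH, was higher in adenoma than in MIN, where Xdh was lower. It had 0 to 2 counts in MIN, 128 to 191 in adenoma (adjusted p = 6.06e-06, edgeR) and 493 to 770 after sulindac (log2 fold change over adenoma 2.08, adjusted p = 0.000344, edgeR). Aox1 was the single gene called of 11 tested between sulindac and adenoma, beside 8.32% higher and 9.1% lower among all genes. Its fitted log2 fold change of adenoma over MIN was 7.33, or 8.16 without MIN replicate 1. In that comparison Aox1 passed the filter on low counts only through adenoma, and Gda and Nt5e only through MIN. All of these had to differ, so their part in the counts adds no support. Between sulindac and MIN, 5 of 12 were lower and 4 were higher, beside 26.8% and 23% of all genes. Gda (-6.87), Nt5e (-5.11) and Ada (-1.54) were among the lower genes in log2 fold change, and Aox1 (9.39) was among the higher ones. Without MIN replicate 1 the value of Aox1 was 10.22, and without MIN replicate 3 that of Nt5e was -2.94, while its call was lost without any 1 of the sulindac samples (adjusted p = 0.0286 to 0.0459, edgeR).

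Several enzymes that remove superoxide and hydrogen peroxide rose after sulindac. Between adenoma and MIN, 5 of 16 tested were lower, 1 was higher and 10 were not called, against 20.1% of all genes lower and 18.5% higher, whereas after sulindac 6 of 14 were higher than in untreated adenoma and 0 were lower, against 8.32% of all genes higher. Cat, which encodes catalase, had 220.3, 234.8 and 197.6 CPM in MIN, 96.1, 72.6 and 81.0 CPM in adenoma and 474.5, 544.9 and 480.8 CPM after sulindac. Its log2 fold changes were -1.38 for adenoma over MIN (adjusted p = 4.08e-05, edgeR) and 2.59 for sulindac over adenoma (adjusted p = 3.99e-05, edgeR), so that it ended above MIN (1.20, adjusted p = 1.52e-05, edgeR). After sulindac Txnrd1 (thioredoxin reductase), Gpx2 (a glutathione peroxidase of the gut) and Sod1 (cytosolic superoxide dismutase) also rose, with log2 fold changes of 1.64, 1.63 and 1.15 (adjusted p = 8.64e-05, 0.00057 and 0.00104, edgeR). Gpx2 had 374.7, 227.7 and 311.9 CPM in untreated adenoma and 1012, 992.1 and 817.2 CPM after sulindac. In adenoma against MIN, Prdx5, a peroxiredoxin, rose (log2 fold change 1.01, adjusted p = 0.00195, edgeR). Txn1 (thioredoxin) and Gpx3 fell, with log2 fold changes of -0.87 and -1.46 (adjusted p = 0.00299 and 0.00626, edgeR). The call of Txn1 was lost without MIN replicate 2 or 3 or adenoma replicate 1 or 2 (adjusted p = 0.0101 to 0.0123, edgeR), and that of Gpx3, with 9 to 37 counts per sample, without any 1 sample but MIN replicate 2 (0.0153 to 0.0315). Between sulindac and MIN, 7 of 15 were higher, beside 23% of all genes, including Txnrd1 (1.54) and Prdx5 (1.15), and 3 were lower, beside 26.8%, including Gpx3 (-3.69, or -4.57 without sulindac replicate 3).

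Of 15 receptors and transcription factors known to act upstream of Nox1, Duox2 or Nos2, 6 were lower in adenoma than in MIN, 1 was higher and 8 were not called, beside 20.1% lower and 18.5% higher among all genes, with a median log2 fold change of -0.41. Ifngr1, which encodes a chain of the receptor for interferon gamma, an inducer of NOS2, fell from a mean of 206.6 to 49.5 CPM (log2 fold change -2.06, adjusted p = 1.32e-05, edgeR). The intestinal factors Gata6 and Cdx2 fell as well, with log2 fold changes of -1.53 and -1.10 (adjusted p = 4.52e-06 and 3.37e-05, edgeR), and Rela, a subunit of NF-κB, rose by 1.03 (adjusted p = 4.5e-05, edgeR). After sulindac, 3 of the 15 were higher, beside 8.32% of all genes, and 0 were lower. The higher genes were Il17ra, Ifngr1 and Tnfrsf1a, with log2 fold changes of 0.89, 0.71 and 0.46 (adjusted p = 0.00122, 0.00892 and 0.00651, edgeR). Without any 1 of the 6 samples the call of Ifngr1 was lost (adjusted p = 0.0111 to 0.0372, edgeR), and that of Tnfrsf1a was lost without any 1 of them except adenoma replicate 3 (0.0209 to 0.0345). With library size alone their values fell to 0.54 and 0.29 (adjusted p = 0.0248 and 0.0328, edgeR). Between sulindac and MIN, 7 were lower and 3 higher, beside 26.8% and 23% of all genes, and the log2 fold changes of Gata6, Cdx2 and Ifngr1 were -1.90, -1.39 and -1.37.

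**Figure D4:**
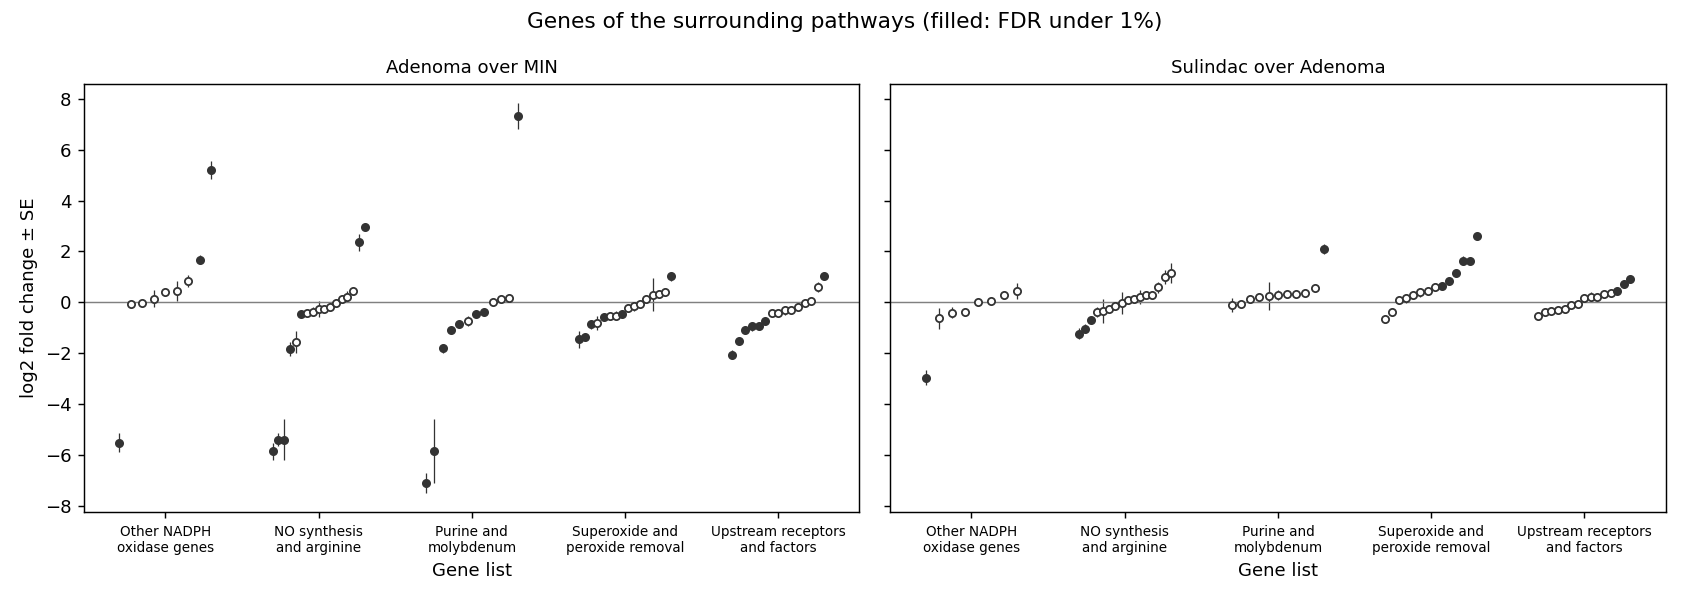
Log2 fold change with 1 standard error for the tested genes of the 5 surrounding lists, ordered by value within each list, for adenoma over MIN (left) and sulindac over adenoma (right); filled points passed an FDR of 1%. The removal enzymes hold 6 filled points above 0 after sulindac, and the purine list holds 7 filled points below 0 in adenoma.

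The genes whose levels followed each member most closely were sought by Pearson's correlation of log2(CPM + 0.5) over the 9 samples among 14009 other genes. They were Hoxb8 and Vegfc for Nox1 (r of 0.997 for both), Lrrc66 and Gm20604 for Noxo1 (0.991 and 0.989), Rasd2 and Foxred1 for Noxa1 (0.990 and 0.986) and Npm3 and Zfp593 for Cyba (0.993 and 0.989). For Duox2 they were Sstr1 and Cdhr1 (0.999 for both), for Duoxa2 Cap2 and Sdr16c5 (0.999 for both), for Nos2 Cap2 and Myo3a (0.999 for both) and for Xdh Akr1b7 and Pigc (0.989 and 0.986). The 9 points fall into 3 groups and share their libraries, so that any gene with the same difference between groups scores high, and the values are given as a description.

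Markers of cell types moved with these genes. The leukocyte markers with a row, 10 in all, summed to 5.06 to 6.73 CPM in MIN, 8.35 to 16.7 in adenoma and 3.12 to 4.30 after sulindac. Ptprc, which encodes CD45, had 0 to 1 counts in the MIN samples, in which Nos2 had 315 to 620. Itgam gave 3.31 to 4.03 CPM of the MIN sum, and 66.3% of its 50-base stretches lie in another gene. Cd68, which rose from 1.61, 1.13 and 2.26 CPM in MIN to 10.4, 7.93 and 16.2 CPM in adenoma and fell to 3.90, 2.84 and 3.20 CPM after sulindac, moved with Cyba and Hvcn1, while Ptprc had 4 to 8 counts in adenoma and 0 after sulindac, and 3 of the 10 leukocyte markers were at 0 in every adenoma sample. Of 10 stromal and endothelial markers the sum was 7.71 to 9.07 CPM in MIN, 107.4 to 262.3 in adenoma and 3.70 to 9.39 after sulindac, nearly all of the adenoma sum being Vim, at 105.3 to 260.1 CPM. No count was found for the collagen genes Col1a2 and Col3a1. Pdgfra was higher in adenoma, with 19 counts in all MIN and 92 in all adenoma samples (adjusted p = 0.000492, edgeR), while Pdgfrb fell from 446 counts to 1. Col1a1 had 45, 126 and 41 counts in all MIN, adenoma and sulindac samples, missed the threshold between adenoma and MIN (adjusted p = 0.0101, edgeR) and was lower after sulindac (adjusted p = 0.00975, edgeR). The endothelial markers Cdh5 and Kdr had at most 1 count in adenoma, where Nos3 was higher, and Pecam1 was lower there than in MIN (log2 fold change -2.18, adjusted p = 0.00312, edgeR). The part of Cd68, Vim, Pdgfra and Col1a1 in the results for Cyba, Hvcn1 and Nos3 was not tested. All 7 epithelial markers were detected, with summed levels of 5494 to 7977 CPM in MIN, 3214 to 4234 in adenoma and 4510 to 5385 after sulindac. Of these 7, 5 were lower in adenoma than in MIN and 0 were higher, beside 20.1% lower and 18.5% higher among all genes. After sulindac Krt8 and Vil1 rose over untreated adenoma, by 0.85 and 0.72 in log2 (adjusted p = 0.00817 and 0.00528, edgeR), while the others were not called. Among all genes, 8.32% were higher in that comparison. Epcam averaged 1057, 734.0 and 555.1 CPM in MIN, adenoma and sulindac samples. Markers of mature cells were lower in adenoma than in MIN, again beside 20.1% lower and 18.5% higher among all genes. This held for 7 of 7 enterocyte rows, 7 of 7 goblet rows and 5 of 6 Paneth rows, of which the remaining 1 was higher. Clca1 and Clca3, both counted as goblet rows, had been listed as alternative symbols of 1 gene. Alpi, Lct, Fabp1 and Apoa4 of the enterocyte markers, and the stem cell marker Olfm4, passed the filter on low counts only through MIN, so their calls add no support. The enterocyte markers summed to 2631 to 4331 CPM in MIN, 48.7 to 81.3 in adenoma and 11.5 to 28.7 after sulindac. Of 4 stem cell markers, Olfm4 and Lgr5 were lower in adenoma than in MIN, at -13.24 and -1.10 in log2 (adjusted p = 4.62e-07 and 0.00149, edgeR), Ascl2 was higher (1.37, adjusted p = 0.000785) and Smoc2 was not called. The part of these changes in the result for Nox1, Duox2, Duoxa2, Nos2 and Xdh was not tested, and fewer cells of a type and less RNA per cell cannot be told apart in bulk samples.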

How the data were processed

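RNA from 9 organoid samples was sequenced by the authors, who deposited raw counts per gene symbol in a single table. The submitters' processing notes name Bowtie2 2.2.4, RSEM and the mm9 build, and the annotation is not given in the sources used here. MIN replicate 1 has 2 run columns and their sum, which equals them in all 23955 rows and was used as 1 sample (chi-square per gene 1.19 between runs, against 18.4 to 72.9 between MIN replicates). No column was left unused for want of a sample. In 27 rows the symbol had turned into a date, and these were kept unnamed.

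Genes were filtered by filterByExpr, scaled by TMM and compared with glmQLFit (robust) and glmQLFTest of edgeR 4.0.16 in R 4.3.3, fitting the groups compared, with Benjamini-Hochberg adjustment and an FDR threshold of 1%, as in the study. Genes at or near the floor in 1 group, in the lists and markers as among the members, passed the filter only through the other group. Their calls, and their part in the counts over lists, therefore add no support. CPM used the scaling over all 9 samples. Standard errors are the log2 fold change over the square root of F. Ratios of pooled counts carry exact (Clopper-Pearson) 95% intervals, which cover counting error only. Scripts were tested on simulated data.

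Members and lists were chosen with earlier results of these data known. Named are the 9 members, 10 fixed partner genes, in each list and comparison up to 4 called genes of largest change, and the 2 genes most like each member. Same-numbered adenoma and MIN samples deviated together from their group means (correlations 0.126, 0.113 and 0.192 across genes). They may therefore be paired, although the labels name no shared animal. The main fits treated the samples as unpaired, and a fit with a replicate block is given under the processing alternatives. Alternatives were DESeq2 1.42.0, scaling by RLE or by library size alone, a filter of 10 counts per sample or none, the 9 samples in a single fit, the replicate block, an FDR of 5%, leaving out each sample, another transcript length and Spearman correlation. Lengths, exon overlaps and shared 50-base stretches came from GENCODE M21 (GRCm38), not the build of the counts, and the promoter letters searched were chosen after the values were seen. Counts over the lists include a few genes whose own values are not reported here.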

Additional observations from a re-analysis of the deposited data

How the results depend on the processing

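Of the members, the log2 fold changes of adenoma over MIN kept their direction and call in all 100 recalculations that gave a value. For Nox1, Duox2, Duoxa2 and Nos2, which passed the filter only through MIN, this was bound to happen and adds no support. Requiring at least 10 counts in every sample removes genes that are silent in a group, and left 2 members lower in adenoma than MIN and 3 lower in sulindac than MIN. Among all genes kept, 1920 of 12070 and 2793 of 11833 were lower in these comparisons. Under this filter 0 members were higher in sulindac than MIN, beside 2631 of all genes, since Cyba, which passed it, had an adjusted p of 0.0106 (edgeR). Between sulindac and adenoma, 2 members were lower (Noxa1 and Cyba) at an FDR of 5%, with library size alone, in the single fit and with DESeq2, and 1 to 2 when each sample was left out. Of all 12962 genes tested, 2374 were lower at an FDR of 5%, 1983 with library size alone and 1766 with DESeq2. In the single fit 1365 of 13892 were lower. Between sulindac and MIN, 0 members were higher, since Cyba was lost, in the single fit and with the replicate block, and 0 to 1 when each sample was left out. Over all genes, sulindac over adenoma gave 2034 higher and 2374 lower at an FDR of 5%, 603 and 1983 with library size alone, 1778 higher with DESeq2, and 423 to 1403 higher and 386 to 1488 lower when each sample was left out, with 576 and 622 without adenoma replicate 2 and 489 and 492, 608 and 631, and 423 and 386 without sulindac replicates 1, 2 and 3. With the replicate block, adenoma over MIN gave 2531 higher and 2733 lower genes and the same counts of members (1 and 6), and the block changed no call of a member there. The block gave 872 higher and 1061 lower genes for sulindac over adenoma, and 3280 and 3791 for sulindac over MIN. Same-numbered correlations of replicates 1 to 3 were 0.253, 0.208 and -0.074 between sulindac and adenoma. Between sulindac and MIN they were -0.030, 0.396 and 0.252. They differ in sign, so whether these samples are paired stayed undecided. Directions that turned belonged to uncalled values near 0. In adenoma over MIN, Rac1 was at 0.043 with library size alone. In sulindac over adenoma, Rac1 was at 0.016 with RLE factors, 0.024 without a filter and 0.016 with DESeq2. When each sample was left out, Rac1 ranged from -0.050 to 0.052 and Noxo1 from -0.52 to 0.020 in that comparison, and Ncf1 from -0.63 to 0.25 in sulindac over MIN. With library size alone the median of all genes moved to 0.12 for adenoma over MIN. The causes of these changes were not tested.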

Other observations

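Markers of gut regions bear on Nox1, which is known as an oxidase of the colon. Of the colon markers, Hoxb13 and Retnlb had at most 1 count in any sample. Aqp8 had 54, 18 and 2 counts and Car1 had 1, 2 and 26 counts in MIN replicates 1 to 3, while Nox1 was highest in replicate 2. Gata4, a factor of the upper small intestine, was at 115.4 ± 4.94, 69.9 ± 3.08 and 78.1 ± 5.74 CPM in MIN, adenoma and sulindac samples (SD, n = 3 each). For the ileal marker Fabp6, MIN samples held 100 to 249 counts, and at most 1 was found in any other sample.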
